A study of Rattus norvegicus with 96 samples.

Results

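Potassium channel genes were followed through 8 rat brain regions and 3 groups of alcohol history. They were taken as all genes whose annotated symbol starts with Kcn, with 1 probe set a gene, the one of the highest mean among those naming a single gene. The rule found 75 Kcn genes among 14218 genes on the array, measured by 126 probe sets, and 31 of the 75 had several probe sets. It uses symbols and brightness, not a difference between regions or groups. The study hybridised RNA of adult male Wistar rats to Affymetrix Rat Genome arrays, one for each replicate of a group in a region, with 4 replicates a group. The regions were the medial prefrontal cortex (mPFC), the core and shell of the nucleus accumbens (NAcC and NAcSh), 2 divisions of the bed nucleus of the stria terminalis, dorsolateral (dlBNST) and ventral (vBNST), the central and basolateral amygdala (CeA and BLA) and the ventral tegmental area (VTA). Alcohol naive rats had no access to alcohol. Nondependent rats self-administered a 10% alcohol solution for 4 weeks. Dependent rats drank in the same way and afterwards spent 4 weeks under intermittent alcohol vapor. Both drinking groups were tested again for self-administration, dependent rats drank more, and brains of all groups were collected when 3 weeks had passed since the vapor. Vapor and later intake therefore cannot be told apart in the dependent group. Rats of one group gave tissue for several regions, so arrays of different regions can share a rat.

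Potassium channels let potassium ions leave a cell and set its resting potential, the shape of its spikes and how often it fires. Voltage-gated pore subunits of the Kv1 to Kv4 classes repolarise spikes, silent modifier subunits and cytoplasmic auxiliary subunits change their gating or placement, and Kv7 and EAG channels damp repeated firing. Inward rectifiers, two-pore leak channels and channels opened by calcium or sodium hold the resting potential or slow firing, and some inward rectifiers (GIRK channels) and the large-conductance calcium-activated BK channel are known targets of ethanol.

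All values are log2 signals made with GCRMA, a method that subtracts probe background and summarises probes into a probe set value, so a difference of 1 is a factor of 2. A value of about 4 lies near the median of an array, and a gene was tested where its mean was above 4 over the arrays of a fit. Of the 75 genes, 40 had a mean above 4 in at least 1 region of naive rats, 22 had one in all 8 regions, and 32 passed the filter over the 32 naive arrays. The other 35 genes stayed at or below 3.82 in every naive region mean and were not tested. A dim probe set is no evidence that a gene is silent, since a second probe set of Kcna2 averaged 3.07 while the one used averaged 11.31. Kcnj10, which encodes an inward rectifier known for its high level in astrocytes, averaged only 2.93 in naive rats. The share that passed differed between the classes of channel. It was 9 of 13 for Kv1 to Kv4 pore subunits, 7 of 13 for auxiliary subunits, 3 of 7 for Kv modifiers, 3 of 11 for the Kv7 and EAG families, 5 of 15 for inward rectifiers, 3 of 11 for two-pore channels and 2 of 5 for calcium- and sodium-activated channels. A further 8 genes were above 4 in some region but below it on average, and 5 of these had their highest mean in the mPFC, among them Kcnk4 (5.98), Kcnc4 (5.22) and Kcnj12 (5.03).

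Promoters of 4 genes are shown because the genes carry the group and regional differences described in the rest of the text: Kcna2 and Kcnd2 differed between groups, and Kcnj6 and Kcnj16 differed most between regions. Each is the 250 bases before 1 annotated start of the gene in build GRCr8, written 5′ to 3′ on the strand of the gene. That start need not be the outermost one. The windows of Kcna2 and Kcnd2 lie inside the RefSeq span of the gene, which begins at 197392746 and 50741595. Capitals mark GGGCGG, the core of a GC box, on either strand. The positions are chr2:197393280-197393529 (+) for Kcna2, chr4:50742235-50742484 (+) for Kcnd2, chr11:47778349-47778598 (-) for Kcnj6 and chr10:96517074-96517323 (+) for Kcnj16.
Kcna2: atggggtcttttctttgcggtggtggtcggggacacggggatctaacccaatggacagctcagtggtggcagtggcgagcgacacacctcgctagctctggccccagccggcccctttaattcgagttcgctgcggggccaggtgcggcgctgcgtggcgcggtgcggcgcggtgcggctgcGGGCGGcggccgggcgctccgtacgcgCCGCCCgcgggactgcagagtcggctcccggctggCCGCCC
Kcnd2: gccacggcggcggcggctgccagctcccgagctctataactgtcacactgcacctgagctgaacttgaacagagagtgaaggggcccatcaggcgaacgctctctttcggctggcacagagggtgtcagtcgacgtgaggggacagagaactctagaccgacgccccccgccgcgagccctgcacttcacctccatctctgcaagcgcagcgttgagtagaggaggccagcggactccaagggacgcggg
Kcnj6: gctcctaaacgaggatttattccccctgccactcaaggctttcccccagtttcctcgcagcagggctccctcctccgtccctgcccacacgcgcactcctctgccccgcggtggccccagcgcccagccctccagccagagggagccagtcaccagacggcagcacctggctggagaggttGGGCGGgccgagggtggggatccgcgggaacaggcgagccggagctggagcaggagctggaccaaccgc
Kcnj16: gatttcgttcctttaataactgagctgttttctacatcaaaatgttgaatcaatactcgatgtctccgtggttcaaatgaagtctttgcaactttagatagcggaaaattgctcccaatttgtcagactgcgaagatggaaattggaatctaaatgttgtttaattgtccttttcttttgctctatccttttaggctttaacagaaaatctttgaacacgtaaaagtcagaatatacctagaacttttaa
The Kcna2 promoter was 72.4% G and C and held 3 matches, that of Kcnj6 was 69.2% and held 1, and that of Kcnd2 was 64% with none. The Kcnj16 promoter was 33.6% G and C with none. RefSeq windows were found for 52 of the 75 genes, 58 windows in all. GGGCGG was in 32 of the 58 (55.2%) against 30.5% of all 33469 promoter windows of the same length. The median share of G and C was 62% over the 58 windows and 51.2% over all. A TATAAA box was in 3.45% of Kcn windows and 12.9% of all, the letters TGACG in 20.7% and 18.2%, CACGTG in 3.45% and 5.59%, and TTCAGCACC in 1.72% and 0.305%, each on either strand. These are matches of letters and not sites of binding.

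Facts of the whole set of arrays touch these results in several places. Of the 96 arrays, 4 were left out (nondependent replicate 2 of the CeA, replicate 3 of the BLA and replicate 2 of the VTA, and dependent replicate 1 of the vBNST): the best correlation of each with any other array ran from 0.3754 to 0.9599, against at least 0.9897 for the 92 arrays used. The regions read as labelled by their markers. Cortical glutamatergic markers averaged 8.38 in the naive mPFC, 6.43 in the BLA and at most 4.61 elsewhere, medium spiny neuron markers 9.72 in the NAcC and 8.71 in the NAcSh, and dopamine neuron markers 7.78 in the VTA and at most 3.52 elsewhere, although Tbr1 (at most 2.29) and Pitx3 (at most 2.16) were dim in every region. In NAcSh naive replicate 2, however, the 6 cortical markers averaged 6.26 against 3.96 to 4.11 in the other 3 naive NAcSh arrays, Slc17a7 read 6.96 against 3.09 to 3.51, Neurod6 read 9.57 against 3.39 to 4.11, and medium spiny markers were at 7.82 against 8.77 to 9.38. In NAcSh dependent replicate 3 the cortical markers averaged 5.43 against 4.10 to 4.15 in the other dependent arrays.

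The first comparison asked how Kcn genes differ between brain regions with no alcohol history. In naive rats, 32 of the 32 Kcn genes tested differed between the 8 regions (limma F test, adjusted p below 0.05 after Benjamini-Hochberg adjustment over all 8792 genes tested), where 96.6% of all genes did, so the count itself does not set the family apart. The size of the differences was larger. The range from the lowest to the highest region mean had a median of 3.11 over the 32 genes and 1.34 over all genes, 28 of the 32 were above the median of all genes, and 22 of 32 had a range above 2 where 27.3% of all genes did. Kcnj6, Kcnj16, Kcns3, Kcnv1, Kcnc2, Kcnq5, Kcnip3 and Kcna4 had a range above 4. The mPFC was the highest region of 13 of the 32 genes (30.6% of all genes), the NAcC of 8 (10.5% of all genes), the VTA of 8 (21.2%), the vBNST of Kcnip1 and Kcnk3, and the CeA of Kcng2. The NAcSh, dlBNST and BLA were the highest region of none, while 7.03%, 5.46% and 4.52% of all genes peaked there. The VTA was the lowest region of 14 genes, against 16.3% of all genes, and the highest of 8.

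**Figure D1:**
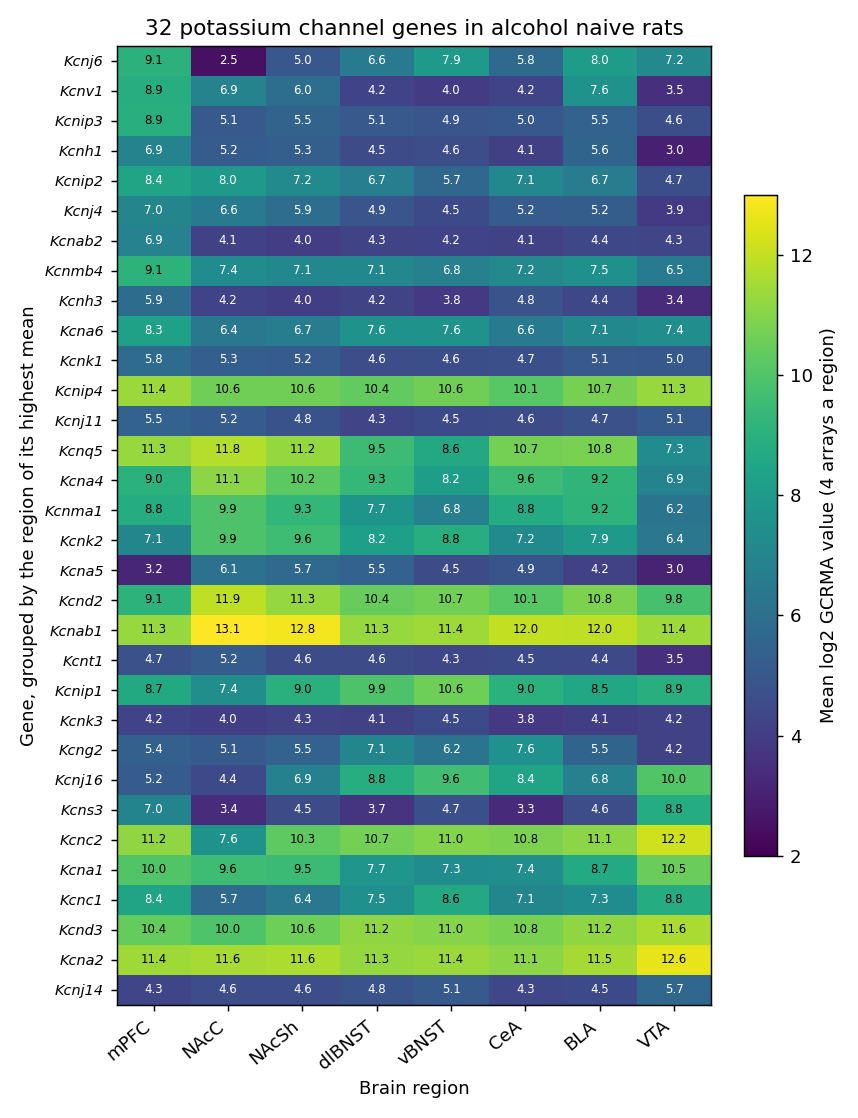
Mean log2 GCRMA value of the 32 tested potassium channel genes (rows, grouped by the region of their highest mean) in the 8 regions (columns) of alcohol naive rats, 4 arrays a region. The largest blocks are the genes highest in the mPFC (13), NAcC (8) and VTA (8).

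Each region was then set against the mean of the other 7. In the mPFC, 19 genes were higher and 8 lower of the 32 (37.8% and 43% of all genes), in the NAcC 13 and 11 (20.6% and 32.4%), and in the NAcSh 11 and 8 (19.8% and 32.8%). In the dlBNST 6 were higher and 12 lower (20.7% and 11.6%), in the vBNST 8 and 14 (28.9% and 19.2%), in the CeA 7 and 13 (21.8% and 22.6%), in the BLA 8 and 3 (13.7% and 21.9%), and in the VTA 10 and 17 (33.3% and 30.7%). Lower Kcn genes thus outnumbered higher ones in the BNST, CeA and VTA, and the reverse held in the mPFC, accumbens and BLA. Without NAcSh naive replicate 2 the counts were 10 higher and 9 lower in the NAcSh, 6 and 16 in the CeA, and within 1 of those given in the other regions. In bulk tissue, fewer cells of a type and less RNA per cell cannot be told apart. Input RNA was 30 or 50 ng depending on the region, so input and region cannot be told apart where inputs differed. The mPFC stood out in genes of all kinds, as the highest region of 30.6% and the lowest of 35.6% of them. The part of RNA input in the regional differences was not tested.

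Among pore-forming voltage-gated subunits, Kcna4, which encodes the Kv1.4 subunit of fast inactivating current, was highest in the accumbens. It read 11.05, 11.17, 11.17 and 11.02 on the 4 naive NAcC arrays and 7.02, 6.91, 6.96 and 6.88 on those of the VTA. All NAcC arrays lay above, and all VTA arrays below, the arrays of the other regions. In limma, Kcna4 was 2.19 ± 0.123 (SE) above the other regions in the NAcC (adjusted p 2.07e-14) and -2.57 ± 0.123 in the VTA (adjusted p 1.01e-16). The order of its region means was NAcC, NAcSh, CeA, dlBNST, BLA, mPFC, vBNST and VTA, and the 3 steps among the CeA, dlBNST, BLA and mPFC were not called.

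Kcna1, the Kv1.1 subunit found along axons, had its highest mean in the VTA. It read 10.42, 10.45, 10.53 and 10.54 there, and was 1.88 ± 0.174 above the other regions (limma, adjusted p 1.95e-10). The mPFC came next at 10.00 ± 0.205 (SD, n = 4), a step that was not called, and the vBNST was lowest at 7.33 ± 0.517. Kcna5, the Kv1.5 subunit, ran the other way. Its means were 6.13 in the NAcC and 5.75 in the NAcSh, and 3.20 in the mPFC, with the lowest mean in the VTA. Its difference was 1.26 in the NAcSh (limma, adjusted p 1.53e-06), or 1.53 (adjusted p 8.2e-08) without the array high in cortical markers, and -1.65 in the mPFC (adjusted p 1.6e-09).

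The Kv3 subunits Kcnc1 and Kcnc2, which allow fast repeated firing and are known for their level in fast-spiking interneurons, had their highest mean in the VTA and their lowest in the NAcC. For Kcnc1 the steps from the VTA (8.82) to the vBNST (8.63) and from the NAcSh to the NAcC were not called. In dependent rats its highest mean was in the vBNST. Kcnc2 read 12.05, 12.10, 12.51 and 12.15 in the VTA and 8.37, 7.75, 6.90 and 7.36 in the NAcC. All NAcC arrays lay below all arrays of the other regions, and the difference of the NAcC was -3.43 ± 0.199 (limma, adjusted p 3.64e-14). On the NAcSh arrays Kcnc2 read 9.43, 11.45, 10.02 and 10.12, with the highest value on the array high in cortical markers. Kcnc1 read 5.92, 7.87, 5.83 and 6.06 in the NAcSh, again highest on that array. The NAcSh difference of Kcnc1 was -1.22 ± 0.2 with the array (limma, adjusted p 1.17e-05) and -1.71 ± 0.126 without it (adjusted p 2.12e-11).

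Of the silent modifiers, which form no channel alone and alter Kv2 channels when they join them, Kcns3 showed the largest VTA difference of the family. It read 8.77, 8.64, 9.09 and 8.66 in the VTA, 7.01, 6.35, 7.50 and 6.97 in the mPFC, and 3.53, 3.15, 3.08 and 3.53 in the CeA. The VTA arrays did not overlap those of any other region, and the difference was 4.33 ± 0.301 (limma, adjusted p 4.77e-13). The CeA and dlBNST were lower, by differences of -1.92 (adjusted p 1.02e-05) and -1.47 (adjusted p 0.000474). Over the 8 naive region means, Kcns3 and the dopamine neuron markers correlated at r = 0.802, a description of 8 points. The markers averaged 7.78 in the VTA and at most 3.52 elsewhere, so this r rests mainly on the VTA. Kcna2 (0.897) and Kcnj14 (0.864) had a higher r with the same markers.

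Kcnv1, the Kv8.1 modifier, had its highest means in the mPFC and BLA. The step from the BLA to the NAcC, the next in order, was not called. It read 9.41, 8.65, 8.10 and 9.25 in the mPFC and 7.71, 8.45, 6.89 and 7.32 in the BLA, but 3.93, 3.89, 4.07 and 3.93 in the vBNST. The mPFC difference was 3.65 ± 0.309 (limma, adjusted p 8.3e-12), that of the BLA 2.21 (adjusted p 3.35e-06) and that of the vBNST -1.95 (adjusted p 7.54e-06). On the NAcSh arrays Kcnv1 read 6.39, 7.69, 4.91 and 4.96, with the highest value on the array high in cortical markers. Differences of -1.65 were found in both the dlBNST (adjusted p 0.000187) and the CeA (adjusted p 9.08e-05).

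Kcng2, the Kv6.2 modifier, was the only one of the 32 with its highest mean in the CeA. It read 7.98, 7.30, 7.79 and 7.18 there, 7.0, 6.70, 7.11 and 7.39 in the dlBNST and 4.56, 3.79, 4.46 and 3.94 in the VTA. The CeA and dlBNST arrays overlapped, although the step between their means was called. The differences were 2.0 ± 0.138 in the CeA (limma, adjusted p 9.9e-12) and 1.41 ± 0.138 in the dlBNST (adjusted p 2.82e-08), both parts of the extended amygdala.

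Of the 7 auxiliary subunits tested, 5 had their highest mean in the mPFC. Kcnip3, a calcium sensor that binds Kv4 channels and is also known as the repressor DREAM, read 8.86, 8.42, 9.20 and 9.17 in the mPFC. On the 28 naive arrays of the other regions it lay between 4.33 and 5.79, so that the mPFC stood apart by 3.81 ± 0.128 (limma, adjusted p 4.07e-21). No step between neighbours was called among the other 7 regions. Kcnip1, a sensor of the same family known for its level in inhibitory neurons, read 10.30, 10.61, 10.68 and 10.75 in the vBNST and 8.42, 7.35, 6.77 and 7.21 in the NAcC. Its differences were 1.79 in the vBNST (limma, adjusted p 4.18e-08), 1.03 in the dlBNST (adjusted p 0.000365) and -0.54 in the BLA (adjusted p 0.0387). Kcnip2, Kcnip4, Kcnab2 and Kcnmb4 also had their highest mean in the mPFC, whereas that of Kcnab1, the beta subunit that inactivates Kv1 channels, was in the NAcC.

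Kcnq5, a Kv7 subunit of the M-current that restrains firing, had its highest mean in the NAcC and its lowest in the VTA. It read 11.81, 11.64, 11.76 and 11.92 in the NAcC, 9.53 on average in the dlBNST, 8.63 in the vBNST and 7.57, 7.51, 7.18 and 6.98 in the VTA. Of its 28 pairs of regions, 26 differed. The VTA difference was -3.26 ± 0.13 (limma, adjusted p 1.34e-18), that of the vBNST -1.75 (adjusted p 1.25e-11) and that of the NAcC 1.85 (adjusted p 1.77e-12). Kcnq5 was also above the other regions in the NAcSh, by 1.23 (1.17 without the array high in cortical markers), and in the CeA, by 0.63. Kcnh1 and Kcnh3, of the EAG family, had their highest mean in the mPFC (6.91 and 5.90).

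Inward rectifiers held the widest range of the family. Kcnj6 encodes GIRK2, a channel opened by G proteins downstream of inhibitory receptors. It read 8.97, 8.94, 9.06 and 9.31 in the mPFC, 8.23, 8.6, 7.88 and 7.48 in the BLA and 2.33, 2.69, 2.63 and 2.34 in the NAcC, a range of means of 6.57. The NAcC arrays did not overlap those of any other region. The differences were 2.93 ± 0.349 in the mPFC (limma, adjusted p 9.96e-09), 1.76 in the BLA (adjusted p 0.000298), 1.61 in the vBNST (adjusted p 0.000391) and -4.58 ± 0.349 in the NAcC (adjusted p 9.63e-12). In the NAcSh Kcnj6 read 3.63, 7.58, 4.83 and 3.98, and its difference was -1.72 (adjusted p 0.000177) with the array high in cortical markers, which read 7.58, and -2.57 ± 0.211 (adjusted p 2.03e-10) without it. In the order of means, mPFC, BLA, vBNST, VTA, dlBNST, CeA, NAcSh and NAcC, the steps from mPFC to BLA and from NAcSh to NAcC were the ones called. Over the 8 region means Kcnj6 and the medium spiny markers correlated at r = -0.841, a description of 8 points.

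Kcnj16, the Kir5.1 subunit that joins Kir4.1 in glia and some neurons, was lowest in the NAcC and highest in the VTA. It read 10.50, 9.72, 9.55 and 10.26 in the VTA, 9.64, 9.58, 9.62 and 9.73 in the vBNST and 4.60, 4.33, 5.10 and 3.62 in the NAcC. The VTA and vBNST arrays overlapped and the step between them was not called. The differences were 2.84 in the VTA (limma, adjusted p 5.95e-09), 2.43 in the vBNST (adjusted p 3.18e-07), 1.5 in the dlBNST (adjusted p 0.000574) and 1.03 in the CeA (adjusted p 0.00865). It was below the other regions in the NAcC (-3.55, adjusted p 1.76e-10), the mPFC (-2.64, adjusted p 8.65e-09) and the BLA (-0.84, adjusted p 0.0365). Over the 8 region means Kcnj16 correlated at r = -0.221 with the mean of the astrocyte markers, which was highest in the mPFC (10.36). With that of the oligodendrocyte markers, highest in the VTA (10.99), it correlated at r = 0.449. Single astrocyte markers differed, so their mean does not stand for each. Gfap (11.06), Aldh1l1 (5.53) and Slc1a2 (6.04) were highest in the mPFC. Aqp4 was lowest in the mPFC (12.82) and highest in the VTA (13.6). Slc1a3 was highest in the CeA (13.57), and Gja1 read 13.55 in both the mPFC and CeA.

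**Figure D2:**
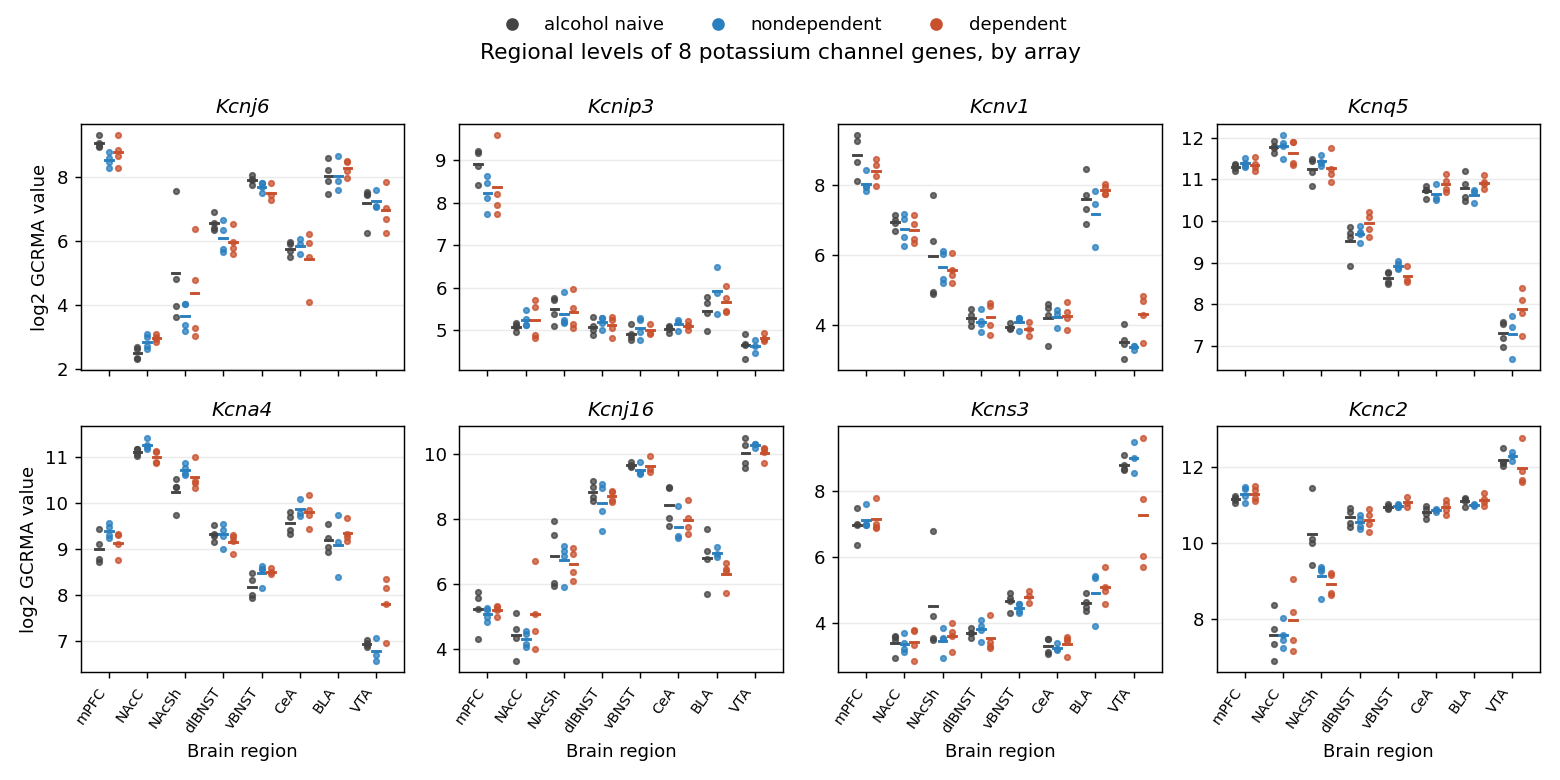
log2 GCRMA value (y axis) of 8 potassium channel genes on each array by brain region (x axis), with 1 point an array, coloured by group. Kcnj6 is low in the NAcC, Kcnip3 stands apart in the mPFC and Kcns3 in the VTA of naive rats, and the points of the other groups lie near those of naive rats in most regions.

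Of the two-pore channels, which carry leak current, Kcnk2 (TREK-1) was highest in the accumbens. It read 10.18, 9.78, 9.43 and 10.39 in the NAcC, 9.92, 8.90, 9.68 and 9.85 in the NAcSh and 6.01, 6.22, 6.94 and 6.25 in the VTA. The core and shell overlapped and their step was not called. Its differences were 2.06 in the NAcC (limma, adjusted p 4.76e-11) and 1.65 in the NAcSh (adjusted p 1.1e-08), or 1.88 (adjusted p 1.55e-09) without the array high in cortical markers. Kcnk3 (TASK-1) had the smallest range of the family, 0.62, and 6 of its 28 pairs of regions differed.

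Kcnma1, the pore of the BK channel, read 10.04, 9.74, 9.52 and 10.34 in the NAcC, 9.38, 9.56, 8.82 and 8.89 in the BLA and 7.04, 5.85, 6.35 and 5.74 in the VTA. Its differences were 1.80 in the NAcC (limma, adjusted p 4.9e-09), 0.95 in the BLA (adjusted p 0.000301) and -2.39 in the VTA (adjusted p 7.24e-12). The highest region depends on the probe set, since 2 dimmer probe sets of Kcnma1 had naive means of 7.06 and 4.85 in the BLA and 5.63 and 4.34 in the NAcC. The accessory subunit Kcnmb4, which slows BK gating in neurons, had its highest mean in the mPFC (9.10) and its lowest in the VTA (6.54).

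The regional pattern was measured again on arrays that the naive fit did not use. In nondependent rats 32 of the 32 genes differed between regions (96.1% of all genes), and in dependent rats 31 of 32 did (93.6%). Of 168 calls of a region against the other 7 in naive rats, 166 had the same direction in nondependent rats and 149 were also called (88.7%, against 77.7% of the calls of all genes). All 168 had the same direction in dependent rats, and 144 were called (85.7% against 70.8%). The highest region was the same in all 3 groups for 26 of the 32 genes, against 60.2% of all genes, and the lowest for 24, against 55.8%.

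The channels' known partners were read beside them. Of 21 partner genes listed, 18 were measured and 13 tested, and 13 of 13 differed between naive regions, where 96.6% of all genes did. Amigo1, an adhesion protein of Kv2 channels, averaged 8.68 in the mPFC and 4.55 in the NAcSh (limma F test, adjusted p 7.32e-19). Cntnap2, which gathers Kv1 channels beside nodes of axons, averaged 12.30 in the NAcC and 10.98 in the mPFC, and Dlg4, the scaffold PSD-95, 10.56 in the dlBNST and 8.6 in the VTA.

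The next comparisons asked how alcohol history moved the Kcn genes. In a fit over the 92 arrays with region as a term, Kcna2 was the 1 Kcn gene of 32 lower in nondependent than in naive rats, and none was higher (1.45% and 0.73% of all genes). Kcna2, the Kv1.2 subunit of low-threshold current in axons and near the spike initiation site, differed by -0.57 ± 0.136 (limma, adjusted p 0.0122) and was lower in 8 of 8 regions. The regional differences ran from -0.15 in the mPFC and -0.17 in the BLA to -0.85 in the NAcSh and -1.05 in the CeA.

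The arrays behind the Kcna2 difference overlapped in most regions. In the CeA it read 11.31, 11.38, 11.12 and 10.47 in naive rats, 10.60, 9.75 and 9.72 in nondependent rats and 11.49, 11.04, 11.45 and 10.89 in dependent rats. The nondependent CeA arrays lay below all dependent ones and overlapped the naive ones by 1 array. In the VTA it read 12.90, 12.19, 12.74 and 12.47 in naive, 12.48, 11.98 and 11.30 in nondependent and 12.10, 11.45, 13 and 12.14 in dependent rats. There the 3 groups overlapped. In the NAcSh the naive arrays read 11.01, 12.63, 11.49 and 11.42, the highest on the array high in cortical markers, and the nondependent ones 10.34, 11.14, 11.52 and 10.15. Without that array the NAcSh difference of Kcna2 was -0.52 ± 0.399 in place of -0.85. The difference over regions was then -0.52 (limma, adjusted p 0.0217), and without both NAcSh arrays high in cortical markers it was -0.52 (adjusted p 0.0224). It was no longer called when naive replicate 2 (adjusted p 0.0848), nondependent replicate 3 (0.0617) or nondependent replicate 4 (0.0666) was left out of all regions. The second, dim probe set of Kcna2 differed by 0.05 ± 0.0353.

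In dependent rats Kcna2 lay between the other groups, at -0.19 ± 0.134 from naive rats (limma, adjusted p 0.35). From nondependent to dependent rats no Kcn gene was called in either direction (0.251% of all genes were higher and 0.399% lower), with 3 genes higher and 2 lower at an unadjusted p below 0.05. The 3 with the smallest p above 0 were Kcna2 (0.37, above 0 in 8 of 8 regions, adjusted p 0.217), Kcnd2 (0.15, adjusted p 0.215) and Kcnip1 (0.29, adjusted p 0.228). Those below 0 were Kcna6, the Kv1.6 subunit (-0.27, adjusted p 0.115), and the beta subunits Kcnab2 (-0.14, adjusted p 0.25) and Kcnab1 (-0.11, adjusted p 0.528).

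From naive to dependent rats 1 of 32 Kcn genes was higher and none lower, against 3.6% and 7.91% of all genes. Kcnd2, the Kv4.2 subunit of the dendritic A-type current, was higher by 0.16 ± 0.0529 (limma, adjusted p 0.0321), in 6 of 8 regions. In the CeA Kcnd2 read 10.34, 10.11, 10.01 and 10.11 in naive, 10.18, 10.23 and 10.40 in nondependent and 10.78, 10.35, 10.51 and 10.52 in dependent rats. Dependent and naive CeA arrays did not overlap, by the narrow gap from 10.34 to 10.35. Of all genes 4.3% did not overlap in that comparison. In the mPFC it read 9.40, 8.84, 9.06 and 9.10 in naive and 9.28, 9.70, 9.67 and 9.44 in dependent rats. These overlapped by 1 array of each group. In the NAcC it ran the other way, with 11.97, 12, 11.64 and 12.10 in naive and 11.72, 11.60, 11.76 and 11.50 in dependent rats. A second bright probe set of Kcnd2, with a mean of 9.02, differed by 0.33 ± 0.0751 over regions, in the same direction. Kcnd3, the Kv4.3 subunit, depends on the probe set. The one used, with a mean of 10.83, differed by 0.03 ± 0.0477 from naive to nondependent and -0.01 ± 0.0469 from naive to dependent rats, while a second one, with a mean of 9.17, differed by 0.65 ± 0.109 and 0.66 ± 0.107. With the mean of probe sets Kcnd3 was called higher in both (limma, 0.23, adjusted p 0.00216, and 0.20, adjusted p 0.00287).

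The Kcnd2 call depends on which samples and regions are used. It was no longer called when the mPFC, dlBNST, vBNST, CeA or VTA was left out (limma, differences 0.13 to 0.17, adjusted p 0.0533 to 0.151), nor when naive replicate 2, 3 or 4 or dependent replicate 1 or 2 was left out of all regions (adjusted p 0.055 to 0.0884). With all 96 arrays its difference was 0.13 ± 0.127 (adjusted p 1). Genes with an adjusted p between 0.05 and 0.1 were Kcna4 (0.22, adjusted p 0.0501), Kcna6 (-0.22, adjusted p 0.0572), Kcnip1 (0.29, adjusted p 0.0605), Kcnab2 (-0.14, below 0 in 8 of 8 regions, adjusted p 0.0721) and Kcnq5 (0.16, adjusted p 0.0919), all by limma.

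Means of control transcripts, read for RNA quality, and of markers of other cell types differed between groups. The control signals were not tested. The 3' minus 5' signal of beta-actin averaged 7.49 in naive, 7.99 in nondependent and 7.93 in dependent rats, and that of GAPDH 1.87, 1.74 and 1.62. The controls thus went in opposite directions. Beta-actin lay above naive rats in 7 of 8 regions in nondependent and in 7 in dependent rats. GAPDH lay above naive rats in 3 regions in nondependent and in 1 in dependent rats. The SD of their region means ran from 0.249 to 0.514, which is a spread between regions and not the error of a group difference. With the beta-actin value as a covariate Kcna2 differed by -0.64 (adjusted p 0.0166) and Kcnd2 by 0.15 (adjusted p 0.0995), and with that of GAPDH by -0.58 (adjusted p 0.012) and 0.15 (adjusted p 0.0715). The 7 oligodendrocyte markers averaged 9.57, 9.43 and 9.36 in the same order of groups, and 3 of 7 were lower in dependent than naive rats (median difference -0.192). Of the microglia markers tested 1 of 4 was lower, and of the medium spiny markers 1 of 7 was higher. Of all genes 7.91% were lower and 3.6% higher in that comparison. The part of these cell types in the Kcn differences was not tested.

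**Figure D3:**
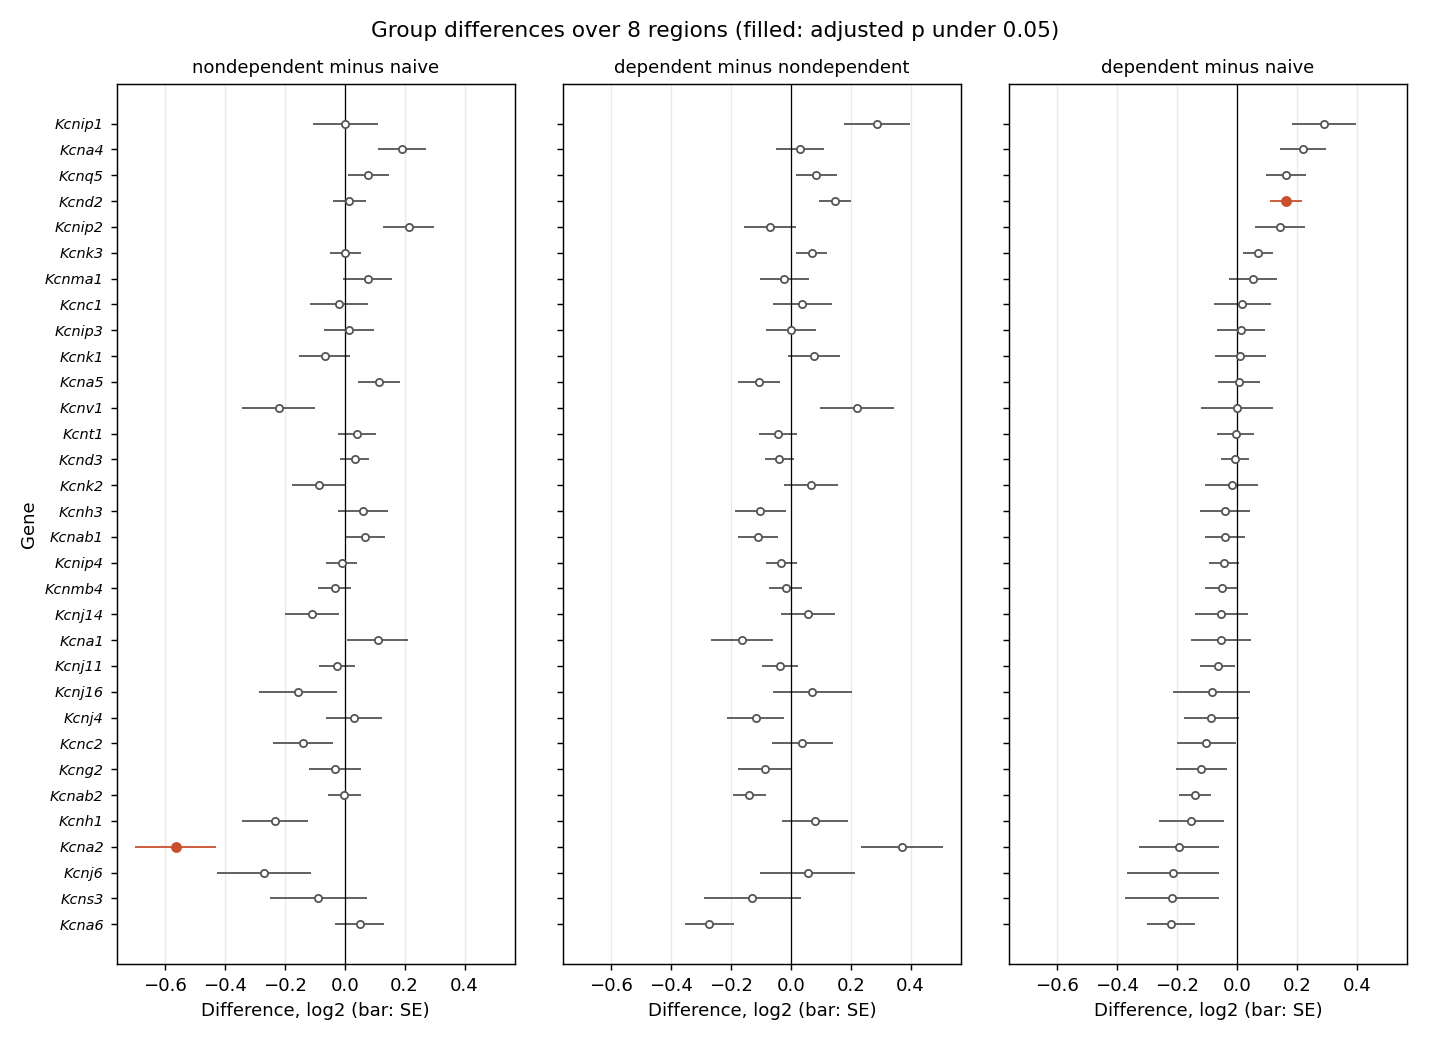
Difference between groups over the 8 regions (x axis, log2, second group minus first; bars are standard errors) for each of the 32 potassium channel genes (y axis) in the 3 comparisons. The filled points are the calls, Kcna2 in nondependent minus naive rats (-0.57) and Kcnd2 in dependent minus naive rats (0.16).

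By class, the median differences stayed small. Over the 32 genes the median was 0.000239 from naive to nondependent, -0.00855 from nondependent to dependent and -0.0407 from naive to dependent rats, beside -0.0184, -0.0141 and -0.0336 over all genes. From naive to dependent rats 12 genes had a difference above 0 and 20 below it, where 64.3% of all genes were below 0. All 5 inward rectifiers were below 0 there, with a median of -0.084, and none was called. Of the 9 Kv1 to Kv4 pore subunits 4 were above 0 and 5 below, with a median of -0.00574 and Kcnd2 called. The 7 auxiliary subunits had a median of -0.0408, the 3 modifiers -0.119, the 3 Kv7 and EAG genes -0.0407, the 3 two-pore genes 0.0114 and the 2 calcium- and sodium-activated genes 0.0257, with none called. None of the 13 partners tested was called in any of the 3 comparisons.

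Whether a group difference was the same in the 8 regions was tested as an interaction. From naive to dependent rats 1 of 32 Kcn genes was called, Kcnc2 (limma F 4.51, adjusted p 0.0243), where 2.28% of all genes were. Kcnc2, the Kv3.2 subunit, differed chiefly in the NAcSh. It read 9.43, 11.45, 10.02 and 10.12 there in naive, 9.39, 9.27, 8.55 and 9.34 in nondependent and 8.65, 9.23, 9.17 and 8.69 in dependent rats. The naive arrays lay above all arrays of both other groups, by the narrow gap from 9.43 to 9.39 for nondependent rats. Without the naive array of 11.45, the one high in cortical markers, the interaction was no longer called (F 2.88, adjusted p 0.146), nor was it without both such arrays (F 2.95, adjusted p 0.141). The NAcSh difference itself was -1.32 ± 0.349 with the array (adjusted p 0.262) and -0.92 ± 0.242 without it (adjusted p 0.361). No Kcn gene was called from naive to nondependent rats (1.68% of all genes, Kcnc2 adjusted p 0.255) or from nondependent to dependent rats (0.331%), where Kcna4 came nearest (F 4.65, adjusted p 0.0545).

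**Figure D4:**
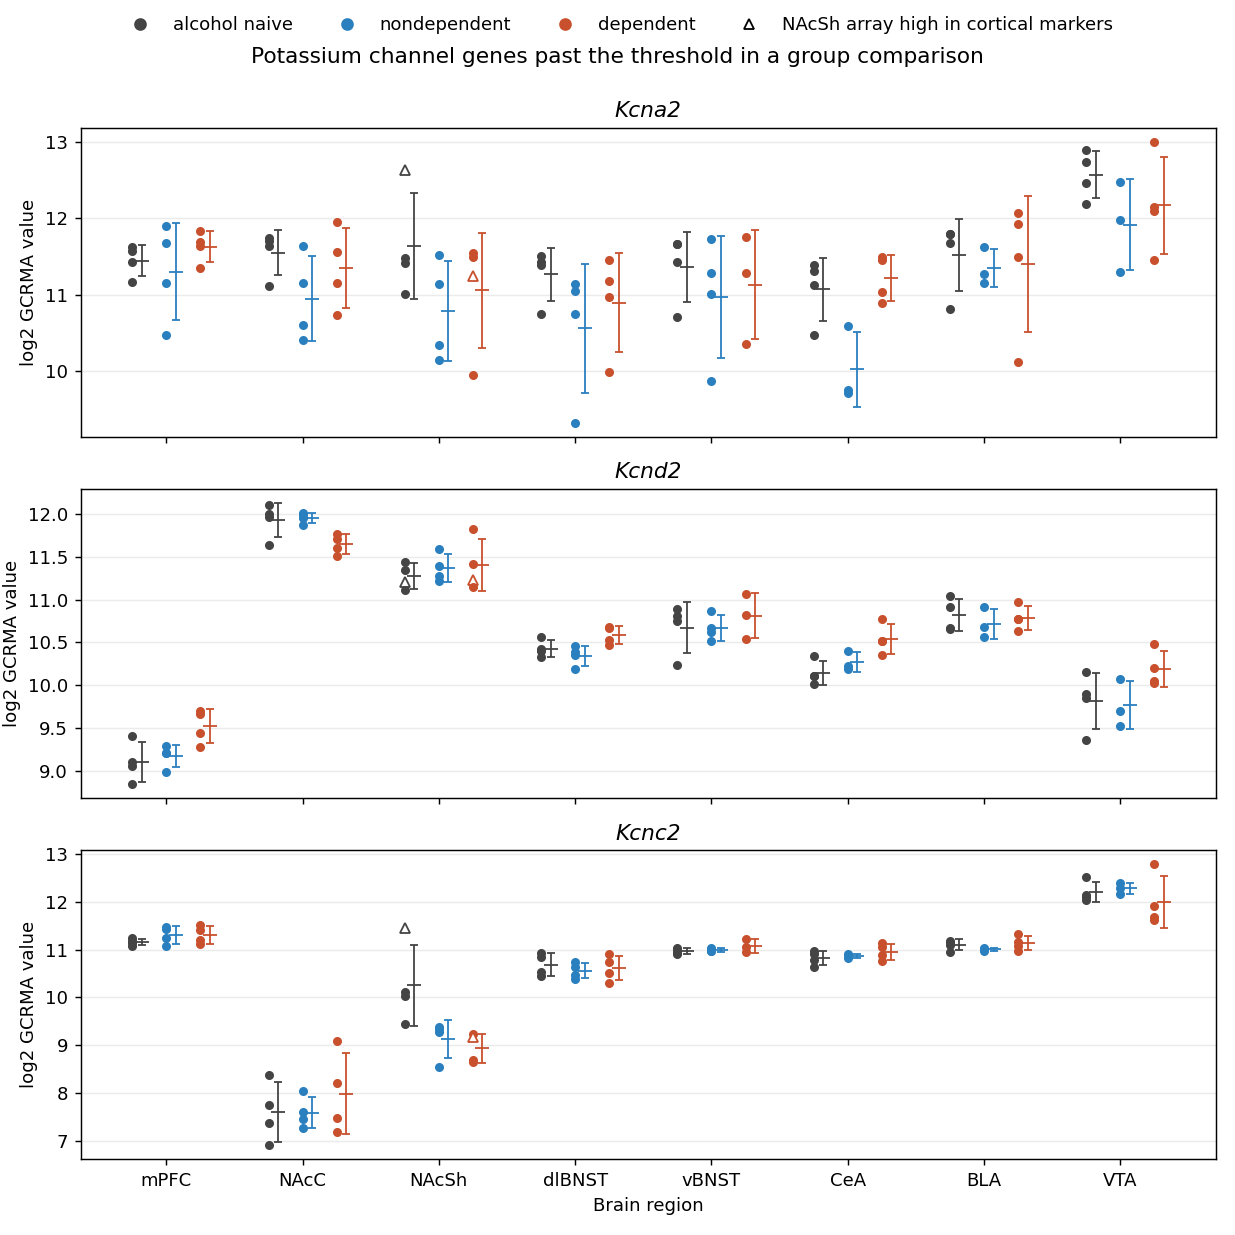
log2 GCRMA value (y axis) of Kcna2, Kcnd2 and Kcnc2 on each array by region (x axis) and group, with triangles for the NAcSh arrays high in cortical markers. Kcna2 of nondependent rats tends to lie below that of naive rats in each region, and the NAcSh triangle of naive rats is the highest Kcnc2 value there (11.45).

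Within single regions no Kcn gene was called in any of 24 comparisons. This covered 762 tests, with 29 to 36 Kcn genes a comparison, against 0.0101% of all gene tests called and 3 comparisons with any gene called. At an unadjusted p below 0.05 there were 82 Kcn tests, 10.8%, against 8.79% of the tests of all genes. The groups did not overlap in 43 Kcn tests, 5.64%, against 6.24% for all genes. Neither share of Kcn tests lies far from that of all genes.

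Some genes led a comparison by their p. In the CeA, Kcna2 was 1.20 ± 0.256 above nondependent in dependent rats (limma, adjusted p 0.676). In the BLA, Kcnh1, the EAG1 channel, read 4.79, 4.74 and 4.90 in nondependent, 6.24, 6.44, 5.51 and 6.15 in dependent and 5.35, 6.43, 5.23 and 5.23 in naive rats. Nondependent arrays lay below those of both other groups, and the difference to dependent rats was 1.27 ± 0.282 (adjusted p 0.775). In the vBNST, Kcnab1 read 11.06, 10.97 and 10.89 in dependent rats, 11.42, 11.50, 11.58 and 11.39 in nondependent and 11.39, 11.61, 11.57 and 11.13 in naive rats. Dependent arrays lay below all others, with differences of -0.50 (adjusted p 0.776) and -0.45 (adjusted p 0.142). Kcnd2 had the smallest p in the CeA (0.40, adjusted p 0.491) and the mPFC (0.42, adjusted p 0.172) from naive to dependent rats. Kcnv1 in the mPFC (-0.82 from naive to nondependent rats, adjusted p 0.153), Kcnj4, an inward rectifier, in the NAcC (-0.61 from naive to dependent rats, adjusted p 0.448), Kcnh3 in the mPFC (-0.95 from nondependent to dependent rats, adjusted p 0.863) and Kcnj6 in the dlBNST (-0.59 from naive to dependent rats, adjusted p 0.266) led 1 comparison each. In the comparisons not described here or in the next paragraphs, the leading Kcn gene had an adjusted p between 0.527 and 0.951.

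The VTA counts turned on 1 array. Kcna4 read 7.02, 6.91, 6.96 and 6.88 in naive, 6.69, 6.56 and 7.07 in nondependent and 8.35, 8.16, 6.96 and 7.80 in dependent rats. Dependent replicate 3 lay among the other groups and the other 3 dependent arrays above them. Kcna4 differed by 1.04 ± 0.27 from nondependent to dependent rats (limma, adjusted p 0.148) with all arrays and by 1.32 without dependent replicate 3 (adjusted p 0.0123). Kcns3 read 8.98, 9.47 and 8.52 in nondependent and 6.04, 5.70, 9.61 and 7.75 in dependent rats, and Kcna1 10.60, 10.93 and 9.92 against 9.15, 8.65, 10.83 and 9.53. In both genes the third dependent array was the highest of its group. Each array was left out in turn, and this one is described because the most calls appeared without it. Counts without it therefore cannot stand as a test. Its best correlation with another array was 0.9938, inside the range of the arrays used. With all arrays no gene of any kind was called in the VTA. Without dependent replicate 3, 8 Kcn calls were made in the VTA. They were 5 of 29 genes from nondependent to dependent rats, where 1.76% of all genes were called. The other 3 of 29 were from naive to dependent rats, where 0.556% were. From nondependent to dependent rats these were Kcna4, Kcna1 (-1.38, adjusted p 0.0331), Kcns3 (-2.49, adjusted p 0.0286), Kcnc1 (-1.11, adjusted p 0.0172) and Kcnab2 (-0.70, adjusted p 0.0311), and from naive to dependent rats Kcna4 (1.16, adjusted p 0.0202), Kcna1 (-1.38, adjusted p 0.0417) and Kcns3 (-2.29, adjusted p 0.0477). With all arrays the differences from nondependent to dependent rats were -0.94 for Kcna1, -1.72 for Kcns3, -0.83 for Kcnc1 and -0.50 for Kcnab2 (limma, adjusted p 0.213 to 0.303). In dependent replicate 3 the dopamine markers averaged 8.01 against 7.67 to 8.45 in the other dependent arrays, but single markers went both ways. It was the lowest dependent array in Th, Slc18a2, Ddc (8.58 against 9.30 to 9.66) and Nr4a2. In Slc6a3 and Foxa2 (8.85 against 5.75 to 8.74) it was the highest, and in Pitx3 it lay among the others. Its medium spiny markers averaged 4.54 against 4.90 to 5.04. Most of that gap lay in Penk, which read 8.46 against 10.76 to 11.47. Ppp1r1b (3.28 against 3.75 to 4.07) and Tac1 (2.835 against 2.93 to 3.34) were also lowest on that array among the dependent ones. Drd1, Drd2, Adora2a, Rgs9 and Pde10a each lay among the other dependent arrays. Their part in the VTA values was not tested.

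**Figure D5:**
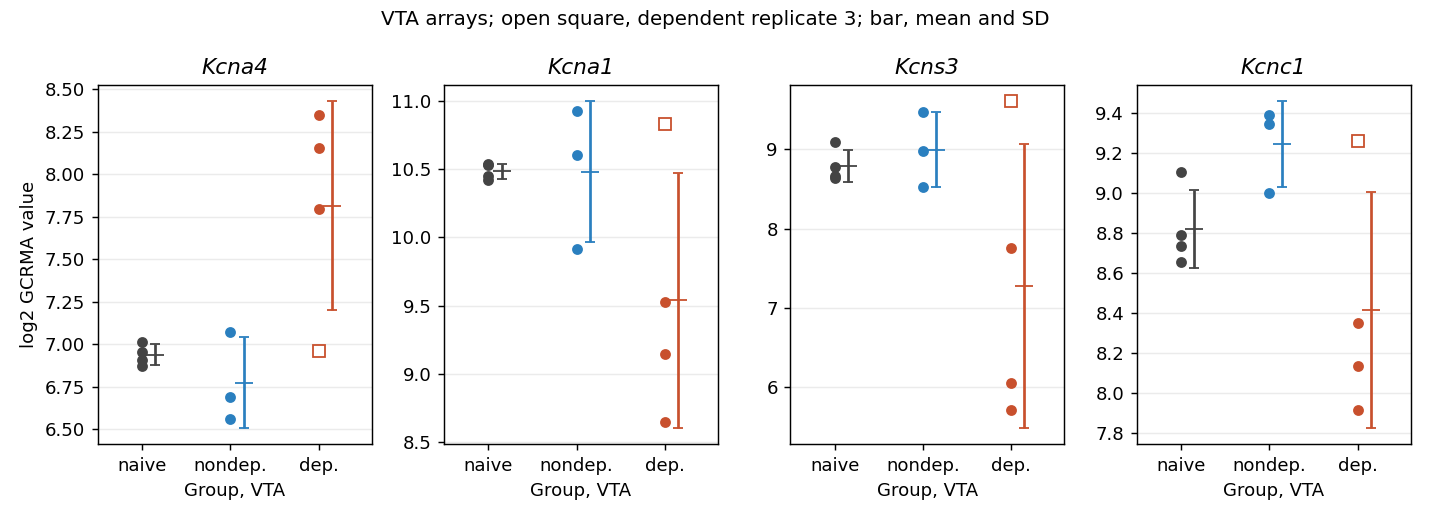
log2 GCRMA value (y axis) of Kcna4, Kcna1, Kcns3 and Kcnc1 on each VTA array by group (x axis), with the mean and SD as bars and dependent replicate 3 as an open square. That array reads 6.96 for Kcna4 and 9.61 for Kcns3, nearer to the naive and nondependent arrays than to the other 3 dependent ones.

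Calls in the mPFC also changed when dependent replicate 3 was left out, and that array is described for this reason. Counts without it therefore cannot stand as a test. Its best correlation with another array was 0.9942, inside the range of the arrays used. Kcna6 read 8.22, 8.26, 8.24 and 8.46 in naive, 7.73, 7.25, 7.67 and 7.87 in nondependent and 7.53, 7.14, 8.41 and 7.59 in dependent rats. Nondependent arrays lay below all naive ones, and dependent replicate 3 was the only dependent array among the naive values. With all arrays Kcna6 differed from naive rats by -0.66 in nondependent (limma, adjusted p 0.162) and -0.63 in dependent rats (adjusted p 0.201). Without that array Kcna6 was called lower in nondependent (-0.66, limma, adjusted p 0.039) and in dependent rats (-0.87, adjusted p 0.0107) than in naive rats. The first of these differences does not contain that array, so only the shared estimate of the spread changed. With only naive and nondependent arrays fitted, Kcna6 was also called (-0.66, limma, adjusted p 0.0459). Without that array Kcnh1 (-1.09, adjusted p 0.0128), Kcnip3 (-0.96, adjusted p 0.0359) and Kcnj4 (-1.08, adjusted p 0.0206) were lower in dependent than in naive rats. The calls without that array were 1 of 36 genes from naive to nondependent rats, where 3.02% of all genes were called. From naive to dependent rats they were 4 of 36, where 6.7% were. With all arrays the last 3 differed by -0.77, -0.55 and -0.58 (limma, adjusted p 0.223, 0.461 and 0.499). The cortical markers of that array averaged 8.61, against 8.41 to 8.54 in the other dependent mPFC arrays.

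Channels known to respond to ethanol were mostly dim. Kcnj3 (GIRK1) averaged 3.94 in naive rats, Kcnj5 3.53, Kcnj9 (GIRK3) 2.89, Kcnmb1 2.6, Kcnn3 2.93 and Kcnq3 3.53, and none of these 6 was tested over all regions. Kcnj3 passed the filter within the mPFC and the VTA and was not called there in any comparison (limma, adjusted p 0.398 to 0.98). Kcnj6 differed by -0.27 from naive to nondependent, 0.06 from nondependent to dependent and -0.21 from naive to dependent rats (limma, adjusted p 0.379, 0.918 and 0.38). Kcnma1 differed by 0.08, -0.02 and 0.05 (adjusted p 0.666, 0.939 and 0.703) and Kcnmb4 by -0.03, -0.02 and -0.05 (adjusted p 0.794, 0.931 and 0.581). No difference over regions was called for these 3 genes in any comparison.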

How the data were processed

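RNA of 8 brain regions, 30 or 50 ng depending on the region, was amplified and hybridised to 96 Affymetrix rat arrays. The deposited unit is the log2 signal of a probe set, computed by the authors with GCRMA (2.36.0 under R 3.03 per the labels); no read depth applies to arrays, and the number of arrays limits the precision. The lowest value was 0.95 and the highest 14.84, and they were used without another normalization. Probe sets were named from the platform annotation: of 31099, 20832 named 1 gene, 436 several and 9831 none, and the last 2 kinds were not used. The probe set of the highest mean stood for its gene, which gave 14218 genes. All 75 Kcn genes matched RefSeq by gene ID.

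Groups came from the labels, which give 32 arrays each to naive, nondependent and dependent rats. The 4 arrays that stand apart were left out, which leaves 32 naive, 29 nondependent and 31 dependent arrays. Tests were made with limma 3.58.1 in R 4.3.3 on genes with a mean above 4 over the arrays of a fit, with Benjamini-Hochberg adjustment over all genes tested and a threshold of 0.05. They were the F test over regions, each region against the other 7, 3 group comparisons within each region, the same 3 over all regions with region as a term, and the interaction of group and region. The labels name no batch and do not say which arrays share a rat, so p-values over all regions can be too small, and the spread between replicates may be technical in part. The fits were tested on simulated data. Genes are named by a rule: the 3 highest and 2 lowest Kcn genes of each region, the gene of the widest range in each class, every Kcn gene called between groups or, with none called, the 3 of smallest p in each direction, the gene of smallest p in each of the 24 comparisons within regions, and the channels known to respond to ethanol; other Kcn genes named were chosen after their values were seen. The members and the lists of markers and partners were chosen with earlier results of these data known. Alternatives were the filter, normalization, probe sets, variance model, array weights, replicate blocks, samples left out and, chosen after seeing the data, the NAcSh arrays high in cortical markers and the control transcripts. Promoters came from RefSeq, read with Python 3.11.15, and figures were drawn with matplotlib 3.10.9.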

Additional observations from a re-analysis of the deposited data

Results flagged for a closer look

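In 4 of the 60 groups of 4 arrays examined for Kcna2, Kcnd2 and Kcnc2, one array stood far from the other 3 by Dixon's criterion, which chance alone meets in about 1 in 20 groups. Kcna2 read 11.12 on NAcC naive replicate 4 against 11.64 to 11.74 on the others, 10.75 on dlBNST naive replicate 4 against 11.39 to 11.50, and 10.81 on BLA naive replicate 1 against 11.68 to 11.80. All 3 lay below the other naive arrays of their region. Kcnc2 read 8.55 on NAcSh nondependent replicate 3 against 9.27 to 9.39 on the others.

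The difference of Kcnc2 between naive and dependent rats varied with the region by the test of the interaction (limma F 4.51, adjusted p 0.0243), and this call is lost without the naive NAcSh array high in cortical markers (F 2.88, adjusted p 0.146).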

How the results depend on the processing

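Among alternative values of single genes, 1379 kept direction and call, 39 kept direction but lost the call, 7 gained it and 1 reversed: Kcnab1 from nondependent to dependent rats over all regions read 0.17 with all 96 arrays.
From naive to dependent rats over all regions, the 1 call became 0 with all 96 arrays, without the mPFC, vBNST or CeA and with the beta-actin covariate, 2 with no filter, a filter above 6, an intensity trend and without the BLA, 3 with quantile normalization, median scaling, the GAPDH covariate and without the NAcC, and 4 with the mean of probe sets.
From naive to nondependent rats the mean of probe sets gave 2 calls, and from nondependent to dependent rats 1 call appeared without the mPFC and 1 without the NAcC.
The region F tests called 56, 57 and 62 genes (naive, nondependent, dependent) with no filter and 18, 18 and 17 with a filter above 6, where each region against the other 7 gave 101 calls, since the number of genes tested changes.
In the interaction from naive to nondependent rats no filter gave 1 call. From nondependent to dependent rats a filter above 6, quantile normalization, an intensity trend and leaving out the naive NAcSh array high in cortical markers gave 1 each and array weights 8. From naive to dependent rats the call was 0 with all 96 arrays, the mean of probe sets, or either set of NAcSh arrays left out, and array weights gave 8.
Within regions array weights gave 9 calls, all in the VTA from nondependent to dependent rats. Fits of only the 2 groups compared gave 1, Kcna6 in the mPFC from naive to nondependent rats. The share of all genes called was not counted for these settings, nor for array weights in the interactions. These counts therefore cannot be set against it.
Leaving out replicates in turn gave 0 to 8 calls within regions (5 without mPFC dependent replicate 3, 8 without VTA dependent replicate 3), 0 to 1 from naive to nondependent and from nondependent to dependent rats over regions, 0 to 4 from naive to dependent rats, and in the interaction 0 to 8 from naive to dependent rats and 0 to 3 from nondependent to dependent rats, the highest of the last 3 without dependent replicate 3. Among these leave-outs the share of all genes called was counted only within regions, without mPFC or VTA dependent replicate 3. It was not counted for the others, nor for the settings above over all regions and in the interactions. Those counts of Kcn genes cannot be set against it either. The causes were not tested.

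Deviations of same-numbered arrays of one region had a median correlation of 0.0123 (27 of 88 pairs over 0.1), against 0.00424 (67 of 264) for other numbers. Such pairs come from different groups and cannot share a rat. Between regions of one group, same-numbered pairs over 0.1 were 37 of 112 in naive, 21 of 92 in nondependent and 24 of 105 in dependent rats. Pairs of other numbers over 0.1 were 70 of 336, 60 of 275 and 69 of 315. These values do not settle whether the numbers mark rats. With the replicate block within regions 0 genes were called and in naive rats 32 differed between regions, as without it. With group and number as a random replicate block over all regions, 4 of 32 Kcn genes were called from naive to dependent rats (Kcna4, Kcna6, Kcnd2 and Kcnip1). Of all 8762 genes, 356 were called higher and 827 lower there. The estimated correlation within a block was -0.00947, so the block did not widen the standard errors (Kcnd2 0.0529 without it and 0.051 with it).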

Other observations

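Kcnd2 has a second bright probe set, and the naive region means of both correlated at r = 0.905 over 8 regions. Kcnd3 has others of unlike level, with means of 9.17 and 3.91 over all arrays.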
